A study of Mus musculus with 8 samples.

Results

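A set of 9 genes that mark mouse embryonic stem cells (ESCs) was followed through RNA-seq of Polycomb repressive complex 2 (PRC2) mutant lines. They were the 4 Dppa genes *Dppa2*, *Dppa4*, *Dppa3* and *Dppa5a*, *Utf1*, and the Nodal pathway genes *Tdgf1*, *Nodal*, *Lefty1* and *Lefty2*. They were taken by gene name, 9 of the 36808 genes in the table, and all 9 were found once. PRC2 places H3K27me3, a histone mark of silenced developmental genes. The study asked how much of the mark is needed for stem cells to differentiate. It used ESCs and cells at day 5 of directed differentiation to spinal motor neurons (SMNs). This differentiation removes leukemia inhibitory factor (LIF) and adds retinoic acid and a hedgehog agonist, and day 5 comes before the terminal stage.

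There were 8 libraries, with 1 library per condition, so no difference below has a replicate check and no test was possible. The 4 ESC libraries were wild-type E14 (129/Ola background), wild-type CJ7 (129/S), Suz12Δ (C57/BL6) and Eednull (BALB/cR1). The 4 day 5 libraries were wild-type E14, Suz12GT (129/Ola), Suz12Δ and Eednull. Suz12GT is a gene trap that fuses SUZ12 to β-galactosidase and acts as a partial loss of function, Suz12Δ truncates SUZ12, and Eednull carries a point mutation in *Eed*. Each mutant is 1 line. A library of Suz12GT ESCs was not analysed here. All ESCs were grown with serum and LIF on irradiated mouse embryonic fibroblasts, which were then reduced by brief plating before collection or differentiation. Apart from Suz12GT and E14, each line has its own strain background, which cannot be told apart from its genotype. By its label the CJ7 library was made and sequenced together with a library that, by its column name, is that of Eednull ESCs. Comparing CJ7 or Eednull ESCs with E14 or Suz12Δ ESCs, or Eednull ESCs with Eednull day 5 cells, therefore crosses batches.

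The values are FPKM, fragment numbers divided by transcript length and library size, so levels of different genes can be set side by side per length. The number of reads is unknown. The libraries listed 11172 to 14876 genes at 0, and the 10 highest genes took 7.69% to 35.2% of the summed FPKM. *Suz12* was at 6.21 FPKM in Suz12Δ ESCs against 35.7 to 53.1 FPKM in the other ESC libraries, and at 10.3 to 17.6 FPKM in the day 5 libraries. *Eed* was at 18.8 to 50.9 FPKM in ESCs and 11.1 to 15.9 FPKM at day 5. A fusion, a truncation or a point mutation need not change the RNA level, so these values do not check the genotypes. The summed FPKM of 6 ESC markers (*Pou5f1*, *Nanog*, *Sox2*, *Zfp42*, *Esrrb*, *Klf4*) was 239.5 to 636 in ESCs and 11.8 to 28.6 at day 5. That of 8 SMN markers, among them *Olig2* and *Isl1*, was 144 in E14 and 109 in Suz12GT day 5 cells, but 19.996 in Suz12Δ and 18.4 in Eednull day 5 cells.

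Nodal is a secreted ligand of the TGF-β family that signals through activin receptors and SMAD2 and SMAD3. It needs a co-receptor, Cripto, which *Tdgf1* encodes, and it is held back by the secreted inhibitors LEFTY1 and LEFTY2, whose genes are themselves switched on by the pathway. In ESCs the pathway is active without added ligand. DPPA2 and DPPA4 bind chromatin as partners, DPPA3 (also called Stella) protects maternal and germ line DNA methylation states, DPPA5A is an RNA-binding protein, and UTF1 is a chromatin protein of undifferentiated cells. All are used as markers of the pluripotent state and are silenced when ESCs differentiate.

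Coordinates are those of GENCODE vM1 on NCBI build 37, the build of the deposited table. *Dppa4* (chr16:48283848-48294405, 7 exons) and *Dppa2* (chr16:48310590-48319836, 7 exons) are neighbours on the plus strand, 16184 bases apart. *Lefty2* (chr1:182823239-182829234, 4 exons) and *Lefty1* (chr1:182865153-182868531, 4 exons) lie on the plus strand 35918 bases apart. *Nodal* is on chr10:60880720-60888086 with 3 exons, *Utf1* on chr7:147129688-147131011 with 2 exons and *Dppa3* on chr6:122576428-122580290 with 4 exons, all on the plus strand. *Tdgf1* (chr9:110842114-110848662, 6 exons) and *Dppa5a* (chr9:78214859-78215984, 3 exons) are on the minus strand.

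The sequences before the starts of *Tdgf1* and *Nodal* are shown because the co-receptor and its ligand had unlike levels in the mutant ESCs, described below. They are the 250 bases upstream of each start in RefSeq (table build GRCm38.p6), and each was found at 1 place in build 37, ending next to the GENCODE start. The *Tdgf1* window is chr9:110848663-110848912 on the minus strand and the *Nodal* window is chr10:60880470-60880719 on the plus strand. Both are printed 5′ to 3′ along their own gene.
Tdgf1: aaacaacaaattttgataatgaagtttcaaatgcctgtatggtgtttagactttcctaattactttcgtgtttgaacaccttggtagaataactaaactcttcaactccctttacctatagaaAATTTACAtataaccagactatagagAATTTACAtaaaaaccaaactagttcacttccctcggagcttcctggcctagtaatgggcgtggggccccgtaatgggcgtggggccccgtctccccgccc
Nodal: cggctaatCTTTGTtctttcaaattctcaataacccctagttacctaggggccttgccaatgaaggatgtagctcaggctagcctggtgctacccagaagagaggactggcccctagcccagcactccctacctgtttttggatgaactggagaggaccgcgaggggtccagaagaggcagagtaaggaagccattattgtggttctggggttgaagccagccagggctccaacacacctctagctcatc

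Capitals mark matches to the letters searched, on either strand. In *Tdgf1* they are 2 copies of TGTNNATT, letters of a FOXH1 motif, read on the opposite strand and starting 127 and 101 bases before the start. FOXH1 is the DNA-binding partner of the SMADs in this pathway, and 10.9% of the 32851 promoters in the RefSeq table held at least 1 match in the same 250 bases. A match of letters does not show binding, which was not tested. In *Nodal* they are 1 copy of ACAANG, letters of a SOX motif, read on the opposite strand and starting 242 bases before the start, which 36.3% of promoters held. The octamer ATGCAAAT (1.60% of promoters) and the SMAD letters CAGACA (17.1%) had no match in either window. *Utf1*, which with these genes makes 3 of the 9 in the promoter table, had none of the 4 motifs, and its window runs 66 bases into the GENCODE transcript and is not printed. GC content was 42% for *Tdgf1*, 53.2% for *Nodal* and 61.6% for *Utf1*, against a median of 52.4%. The ratio of observed to expected CpG was 0.648 for *Tdgf1*, 0.170 for *Nodal* and 0.638 for *Utf1*, against a median of 0.374. The *Nodal* window held the fewest, with 3 CpG against 7 in *Tdgf1* and 14 in *Utf1*.

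Several of the 9 transcripts share long stretches with other places in the genome, which bears on how the reads of each gene could be counted. All distinct 31-base stretches in the coding transcripts of each gene were searched. Of these, 78.6% of *Dppa5a*, 70.5% of *Dppa2*, 63.5% of *Dppa4*, 46.5% of *Dppa3* and 41.6% of *Tdgf1* also occur outside the gene. The figures were 0% for *Utf1* and 0.436% for *Nodal*, so the values of this ligand and this chromatin gene are the least open to shared reads. For *Dppa2* the copy with the most stretches was *Gm9788* on chromosome 19, with 64.8%. For *Dppa5a* it was the nearby *Dppa5b*, with 58.9%, as at an unnamed copy beside it. For *Tdgf1* it was a place on chromosome 16 with no gene in the table, with 40.9%. The 2 Lefty genes share 398 stretches, which are 25.0% of *Lefty1* and 16.3% of *Lefty2*. Reads that fit more than 1 place were divided by estimate in the authors' processing, and the read length is not given in the sources used here, so levels of the genes with large shares are uncertain by an unknown amount.

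**Figure D1:**
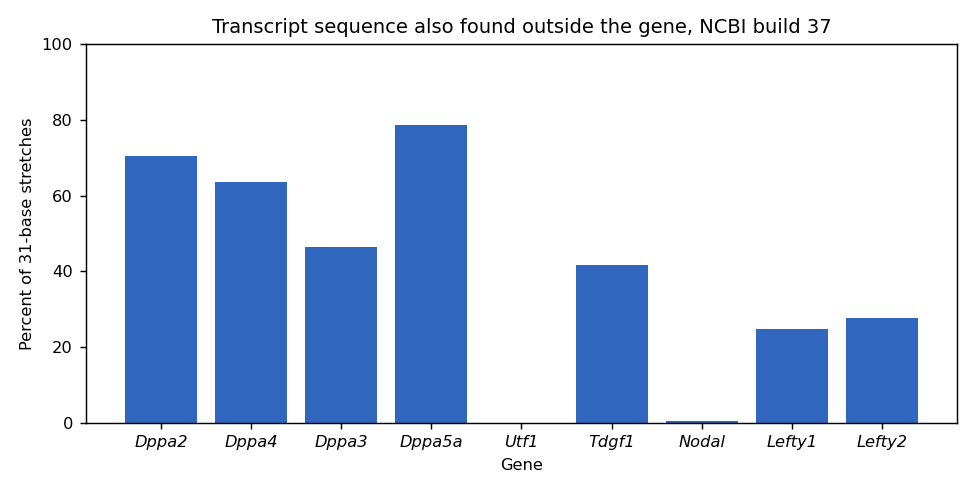
Bars show, for each of the 9 genes, the percent of distinct 31-base stretches of its coding transcripts that also occur elsewhere in NCBI build 37. *Utf1* and *Nodal* are at or near 0, and *Dppa5a* (78.6%), *Dppa2* (70.5%) and *Dppa4* (63.5%) are highest.

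In wild-type ESCs the 9 genes covered a wide range of levels. *Dppa5a* was the highest in E14 ESCs at 407 FPKM, followed by *Lefty1* at 193, *Tdgf1* at 150.2, *Lefty2* at 126, *Utf1* at 64.2, *Dppa4* at 43.2, *Dppa2* at 18.2, *Nodal* at 16.5 and *Dppa3* at 6.53 FPKM. The inhibitors thus stood far above the ligand: the *Lefty1* level was 11.7 times that of *Nodal* in E14 and 16.005 times in CJ7 ESCs. Among the genes above 0 in E14 ESCs, the 9 ranked from the 59.1 percentile (*Dppa3*) to the 99.2 percentile (*Dppa5a*), with a median of 94.3.

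The 2 wild-type lines set a first measure of how far ESC libraries differ without a PRC2 mutation, though batch and strain background differ between them as well. CJ7 ESCs held 31.8 FPKM of *Dppa2*, 47.1 of *Dppa4*, 5.20 of *Dppa3*, 204 of *Dppa5a*, 89.1 of *Utf1*, 178 of *Tdgf1*, 9.21 of *Nodal*, 147 of *Lefty1* and 79.2 of *Lefty2*. On the scale of log2(FPKM + 0.1), used for every log2 ratio below and which understates differences of low genes, the CJ7 to E14 ratios ran from -0.996 (*Dppa5a*) to 0.80 (*Dppa2*), with a median of -0.32 over the 9 genes. The median over all 23141 genes compared was -0.12. None of the 9 reached a 2-fold difference, whereas 15.7% of all genes were 2-fold or more higher in CJ7 and 14.7% were 2-fold or more lower. *Dppa5a* was just short of that limit.

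Suz12Δ ESCs had less of most of these RNAs than any other ESC library, and *Dppa3* was the exception. *Nodal*, *Lefty1*, *Lefty2*, *Dppa4*, *Dppa5a* and *Utf1* were 2-fold or more below E14. *Dppa3* was higher than in every other ESC library. *Dppa2* and *Tdgf1* were within 2-fold of E14. In bulk RNA, fewer cells of a type and less RNA per cell cannot be told apart.

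Among the chromatin-associated genes, *Dppa4* was at 13.3 FPKM in Suz12Δ ESCs against 38.0 in Eednull, 43.2 in E14 and 47.1 in CJ7, a log2 ratio to E14 of -1.69. Its partner and neighbour *Dppa2* was at 15.2 FPKM against 22.2 in Eednull, 18.2 in E14 and 31.8 in CJ7, a log2 ratio to E14 of -0.26. *Dppa4* exceeded *Dppa2* 2.37 times in E14, 1.48 times in CJ7 and 1.71 times in Eednull ESCs, but stood at 0.875 times *Dppa2* in Suz12Δ ESCs. Against CJ7 the log2 ratios were -1.81 for *Dppa4* and -1.05 for *Dppa2*, so that *Dppa2* was 2-fold lower than CJ7 but not than E14. *Utf1* was at 21.9 FPKM against 64.2 to 89.1 in the other 3 ESC libraries, a log2 ratio to E14 of -1.54. *Dppa5a* was at 136 FPKM against 264 in Eednull, 407 in E14 and 204 in CJ7, so its log2 ratio was -1.58 to E14 and -0.58 to CJ7. Which wild-type line it was set against therefore decided whether *Dppa5a* differed by 2-fold. *Dppa3* was at 12.8 FPKM in Suz12Δ ESCs and at 5.20 to 6.53 in the others, with a log2 ratio of 0.96 to E14, 1.28 to CJ7 and 1.03 to Eednull.

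For the ligand, *Nodal* was at 3.74 FPKM in Suz12Δ ESCs against 10.99 in Eednull, 16.5 in E14 and 9.21 in CJ7, with log2 ratios of -2.11 to E14 and -1.28 to CJ7. The inhibitor *Lefty1* was at 47.1 FPKM against 147 to 193 in the other ESC libraries, with log2 ratios of -2.03 to E14 and -1.64 to CJ7. *Lefty2* was at 43.0 FPKM against 79.2 to 126, with log2 ratios of -1.55 to E14 and -0.88 to CJ7. Ligand and inhibitors were thus all lowest in Suz12Δ ESCs, and the excess of *Lefty1* over *Nodal* (12.6 times) stayed within the range of the wild-type lines (11.7 and 16.005 times). The co-receptor gene *Tdgf1* was also lowest in Suz12Δ ESCs as listed, at 123 FPKM against 150.2 in E14, 178 in CJ7 and 244 in Eednull. Its log2 ratios were -0.29 to E14, -0.54 to CJ7 and -0.99 to Eednull. It differed least of the 4 genes from each of these libraries. The gap to *Lefty2* was wide against E14 but small against CJ7 and against Eednull, where *Lefty2* had -1.20.

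Over the 9 genes, 6 were 2-fold or more lower in Suz12Δ than in E14 ESCs and 0 were 2-fold or more higher. Of all 21980 genes compared, 22.8% were lower by that much and 18% were higher. The median log2 ratio was -1.55 for the 9 genes and -0.28 for all genes. Against CJ7, 5 genes were 2-fold or more lower and 1, *Dppa3*, was higher, beside 24% lower and 21.1% higher of all genes, and the median of the 9 was -1.05. The 10 other ESC genes listed (*Pou5f1*, *Sox2*, *Nanog*, *Zfp42*, *Esrrb*, *Klf4*, *Fbxo15*, *L1td1*, *Tex19.1*, *Tcl1*) had a median of -1.37 against E14, with 8 of 10 lower by 2-fold or more. Relative to *Pou5f1*, which encodes OCT4, *Dppa3* was 0.220 times its level in Suz12Δ and 0.0367 to 0.0501 times in the other ESC libraries. *Tdgf1* was 2.11 times the *Pou5f1* level in Suz12Δ ESCs, against 1.15 to 1.63 times in the others.

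Fibroblast marker levels also differed between the ESC libraries. The summed FPKM of 12 fibroblast markers, among them collagen genes and *Thy1*, was 103 in E14, 124 in CJ7, 290 in Eednull and 576 in Suz12Δ ESCs, and none of the 12 was at 0 in any ESC library. RNA from feeder cells and expression of these genes by the ESCs themselves cannot be told apart here. All 12 were 2-fold or more higher in Suz12Δ than in E14 ESCs (median log2 ratio 2.33), beside 18% of all genes. Their part in the lower levels of the ESC genes was not tested.

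**Figure D2:**
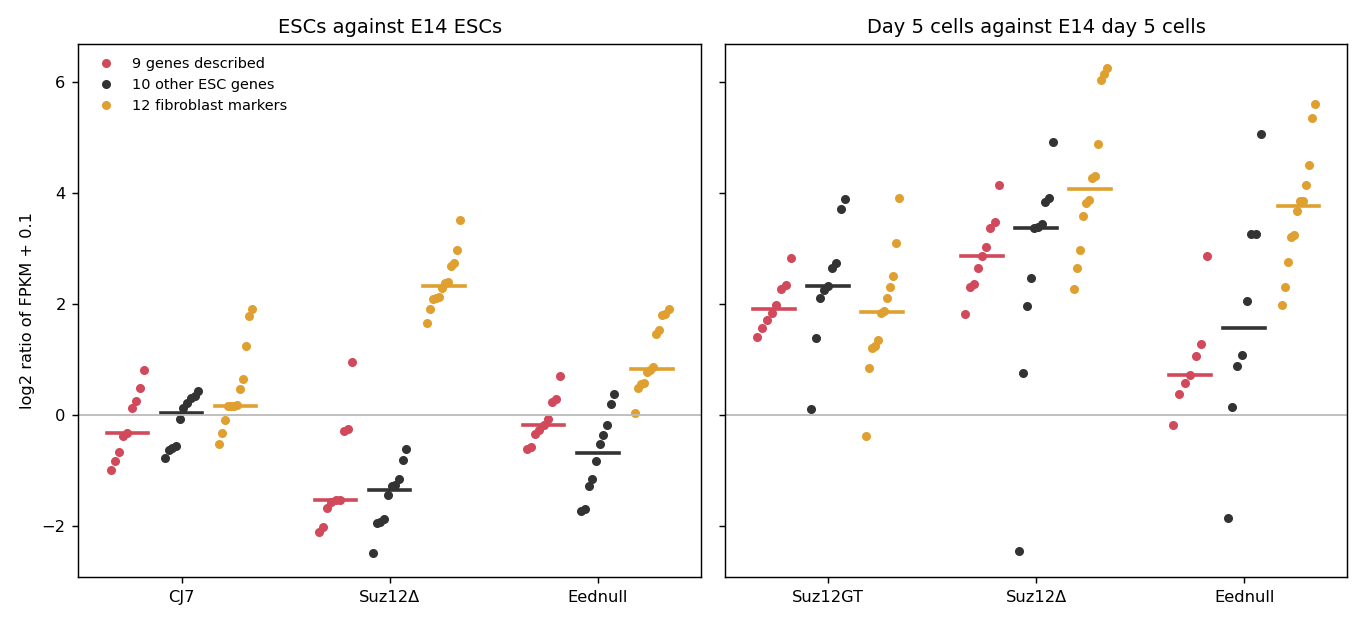
Points show the log2 ratio of FPKM + 0.1 for the 9 genes, 10 other ESC genes and 12 fibroblast markers, in ESCs against E14 ESCs (left) and at day 5 against E14 day 5 (right). Horizontal bars are medians over genes that reach 0.1 FPKM in either library compared, and the medians of the 9 genes are -1.55 in Suz12Δ ESCs and 2.85 at day 5.

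Eednull ESCs kept these genes near wild-type levels. *Dppa2*, *Dppa3*, *Dppa5a*, *Utf1*, *Nodal*, *Lefty1* and *Lefty2* lay between the levels of the 2 wild-type lines. *Dppa4*, at 38.0 FPKM, was below both. *Tdgf1*, at 244 FPKM against 150.2 in E14 and 178 in CJ7, was above both, with log2 ratios of 0.70 and 0.45. None of the 9 differed from E14 by 2-fold, beside 22.4% of all genes that were higher by that much and 11.9% that were lower. The median log2 ratio was -0.18, against 0.04 over all 24280 genes compared. Against CJ7, which shares its batch, the 9 ratios ran from -0.52 (*Dppa2*) to 0.45 (*Tdgf1*). The 10 other ESC genes had a median of -0.68 against E14, with 4 of 10 lower by 2-fold or more. Both Suz12Δ and Eednull were set against the same E14 library, and the medians of the 9 genes were -1.55 and -0.18.

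**Figure D3:**
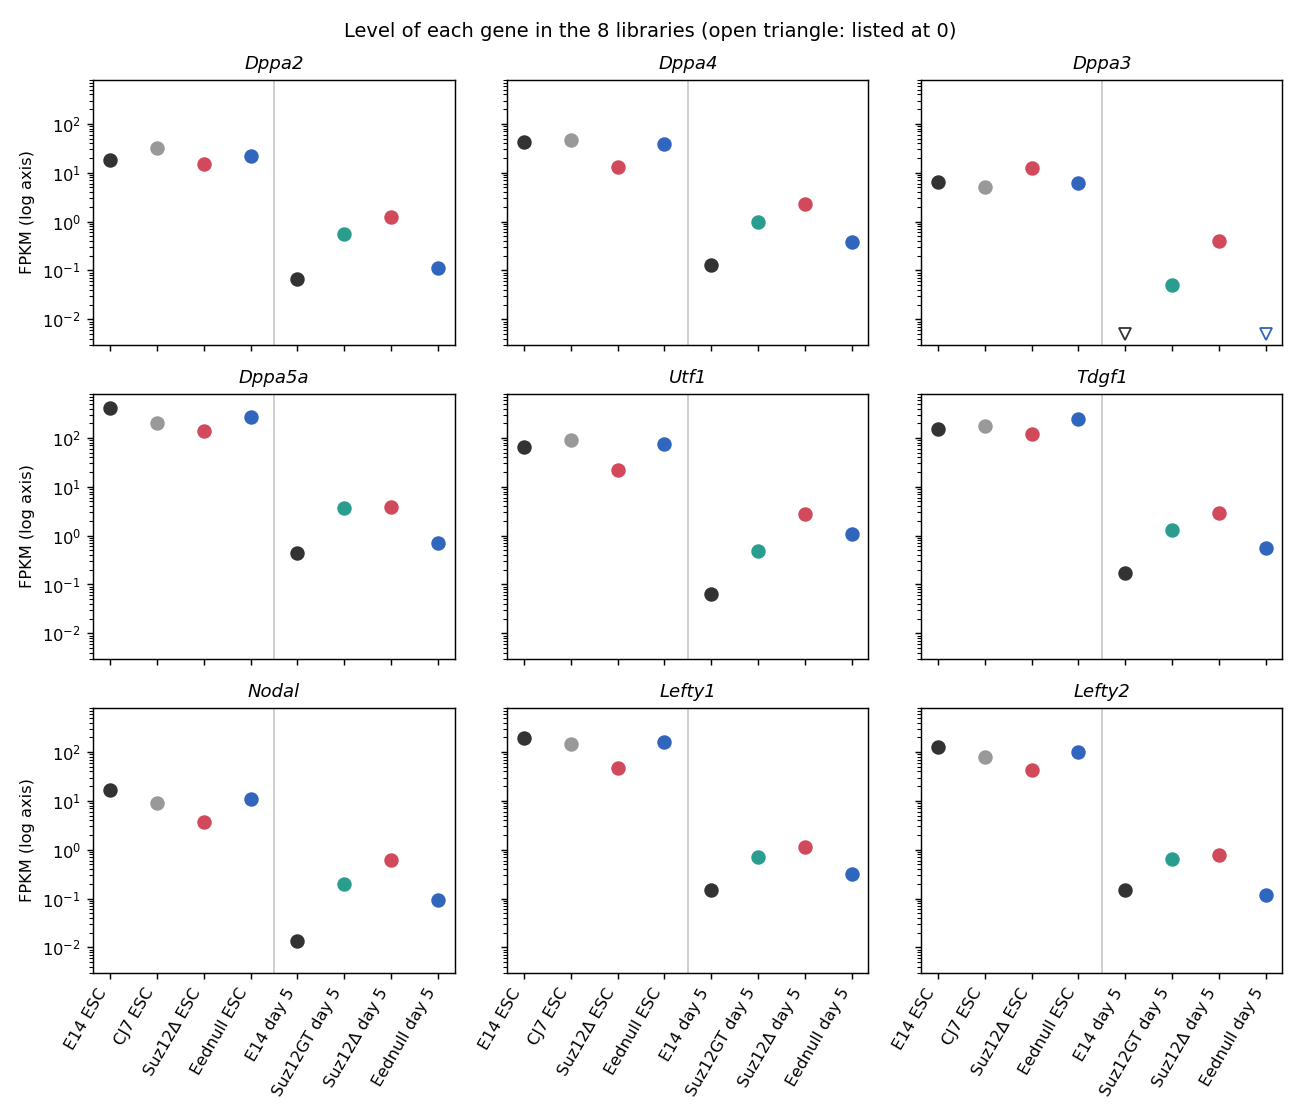
Each panel shows 1 gene in the 8 libraries, with FPKM on a log axis and 1 point per library. In ESCs the Suz12Δ point is lowest for 8 genes and highest for *Dppa3*, and at day 5 the Suz12Δ point is highest for all 9.

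From ESC to day 5 the 9 genes were nearly lost in E14. *Dppa3*, a germ line and early embryo gene, was at 6.53 FPKM in ESCs and listed at 0 at day 5. *Nodal* was at 16.5 FPKM in ESCs and 0.0135 at day 5, which is 0.0820% of its ESC level. *Lefty1* went from 193 to 0.152 FPKM, or 0.0787% of the ESC level, a 1271-fold lower value. Ligand and inhibitor thus reached similarly small shares, and no gene of the 9 kept as much as 1% in E14. *Lefty2* kept 0.119% (0.150 FPKM), *Tdgf1* 0.116% (0.174 FPKM), *Dppa5a* 0.110% (0.447 FPKM) and *Utf1* 0.101% (0.0646 FPKM). The largest shares were those of *Dppa2* with 0.363% (0.0661 FPKM) and *Dppa4* with 0.295% (0.127 FPKM). The log2 ratios of the 8 genes above 0 at both stages ran from -6.79 to -9.58 with a median of -8.79, against -0.20 over all genes. All 9 were 2-fold or more lower, beside 25.8% of all 21563 genes compared.

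Suz12Δ cells kept more of these RNAs than any other line, and by unequal amounts. *Dppa4* was at 2.24 FPKM at day 5, 16.8% of its Suz12Δ ESC level. *Nodal* was at 0.609 FPKM, 16.3% of the ESC level, and *Utf1* at 2.81 FPKM, 12.8%. These genes were 5.97-fold, 6.14-fold and 7.81-fold below their ESC levels. *Dppa2* kept 8.19% (1.25 FPKM) and *Dppa3* 3.20% (0.408 FPKM). The remaining genes kept the least, with 2.83% for *Dppa5a* (3.85 FPKM), 2.43% for *Lefty1* (1.14 FPKM), 2.39% for *Tdgf1* (2.94 FPKM) and 1.81% for *Lefty2* (0.777 FPKM). The ligand thus kept a larger share of its ESC level than its co-receptor or its inhibitors. The *Lefty1* level was 12.6 times that of *Nodal* in Suz12Δ ESCs and 1.88 times at day 5, while in E14 it was 11.7 and 11.2 times. In Eednull it was 14.4 times in ESCs and 3.44 times at day 5, and in Suz12GT day 5 cells 3.65 times. With *Nodal* at 0.0135 FPKM in E14 and 0.0913 FPKM in Eednull day 5 cells, the precision of these ratios is limited. The share kept has the Suz12Δ ESC level as its base. The median log2 ratio of the 9 was -4.66, against 0.43 over all genes, and all 9 were lower by 2-fold or more, beside 12.6% of all 22681 genes compared.

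Eednull cells came closer to E14 in how little was left. *Dppa3* was at 6.19 FPKM in Eednull ESCs and was listed at 0 at day 5, as in E14. *Utf1* kept the largest share, 1.47% (1.10 FPKM), followed by *Dppa4* with 0.982% (0.373 FPKM) and *Nodal* with 0.831% (0.0913 FPKM). *Dppa2* kept 0.514% (0.114 FPKM). The chromatin gene *Utf1*, its fellow *Dppa4* and the ligand were thus the genes with the largest shares in both Suz12Δ and Eednull, though the shares in Eednull were much smaller. *Dppa5a* kept 0.271% (0.715 FPKM), *Tdgf1* 0.231% (0.563 FPKM), *Lefty1* 0.199% (0.314 FPKM) and *Lefty2* 0.122% (0.12 FPKM). The median log2 ratio of the 8 genes above 0 at both stages was -7.52, against -0.08 over all genes, and all 9 were lower by 2-fold or more, beside 24.8% of all genes.

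Suz12GT day 5 cells were set against E14 ESCs, which share their background, in place of their own ESCs. *Dppa2* was at 3.03% of the E14 ESC level (0.553 FPKM), *Dppa4* at 2.31% (0.999 FPKM) and *Nodal* at 1.2% (0.198 FPKM). *Dppa5a* was at 0.924% (3.76 FPKM), *Tdgf1* at 0.855% (1.28 FPKM), *Dppa3* at 0.779% (0.0509 FPKM) and *Utf1* at 0.752% (0.483 FPKM). The inhibitors had the lowest shares, with 0.510% for *Lefty2* (0.641 FPKM) and 0.375% for *Lefty1* (0.723 FPKM). The 9 shares had a median of 0.855%, between those of E14 (0.110%) and Suz12Δ (3.20%), and Eednull had a median of 0.271%. All 9 were 2-fold or more below E14 ESCs, beside 22.9% of all genes, with a median log2 ratio of -6.72.

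**Figure D4:**
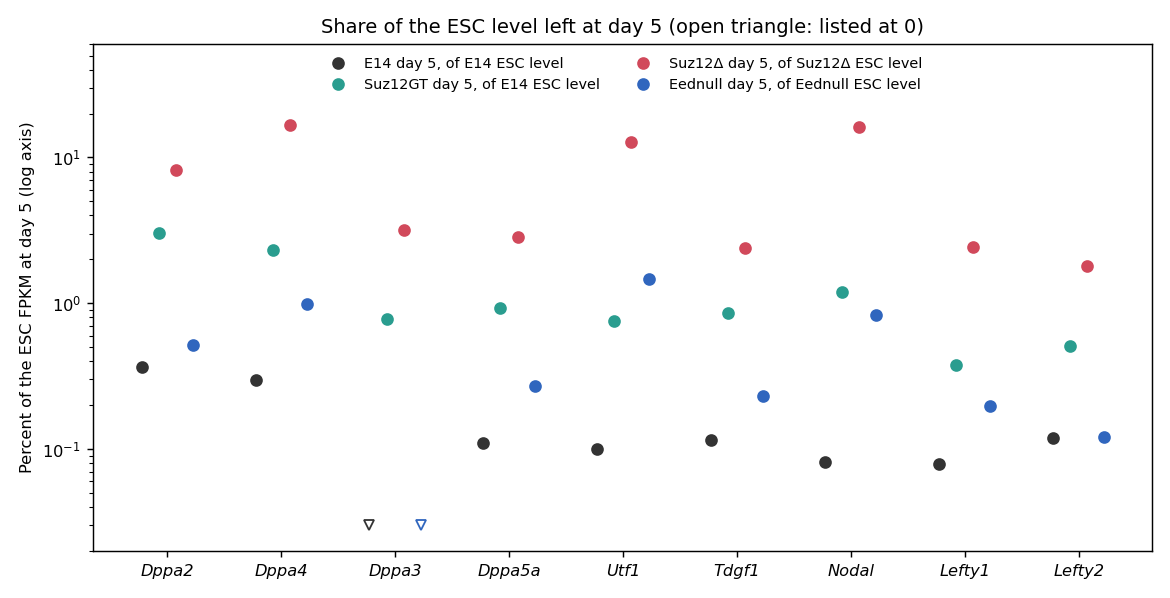
Points show the FPKM at day 5 as a percent of the ESC FPKM on a log axis, for each gene and line, with E14 ESCs as the base for E14 and Suz12GT. The Suz12Δ points lie highest, from 1.81% to 16.8%, and the E14 points lie at or below 0.363%.

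At day 5 the order of the libraries was nearly the same for all 9 genes. Suz12Δ was highest for 9 of 9. Suz12GT came second for 8, and Eednull for 1, *Utf1*. The full order Suz12Δ, Suz12GT, Eednull, E14 held for 6 genes. The exceptions were *Utf1*, *Lefty2*, for which Eednull (0.12 FPKM) was just below E14 (0.150 FPKM), and *Dppa3*, which was listed at 0 in both. Without replicates the spread of each level is unknown, so close neighbours in this order, such as Suz12Δ (3.85 FPKM) and Suz12GT (3.76 FPKM) for *Dppa5a*, cannot be separated.

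Against E14 day 5 cells, the log2 ratios in Suz12GT were 2.82 for *Dppa5a*, 2.34 for *Tdgf1*, 2.27 for *Dppa4*, 1.97 for *Dppa2*, 1.82 for *Utf1*, 1.71 for *Lefty1*, 1.57 for *Lefty2* and 1.39 for *Nodal*. All 8 of these genes were higher by 2-fold or more, beside 16.8% of all 20840 genes compared, and their median was 1.90 against 0.13 over all genes. *Dppa3* was under the minimum of 0.1 FPKM in both libraries and is left out of this count. *Dppa2*, *Utf1* and *Nodal* were under it in E14 and entered only through Suz12GT, so for them a lower value could not be counted. In Suz12Δ the ratios were 4.14 for *Utf1*, 3.47 for *Tdgf1*, 3.36 for *Dppa4*, 3.02 for *Dppa2*, 2.85 for *Dppa5a*, 2.64 for *Nodal*, 2.31 for *Lefty1* and 1.81 for *Lefty2*, and *Dppa3* was at 0.408 FPKM in place of a listed 0. All 9 were thus 2-fold or more higher, beside 26.6% of all genes, with a median of 2.85 against 0.26 over all genes. Here too *Dppa2*, *Utf1*, *Nodal* and *Dppa3* were under 0.1 FPKM in E14 and could only come out higher. The order of the genes depends on the pseudocount: as plain ratios of FPKM, *Nodal* was 45.1-fold and *Utf1* 43.5-fold higher in Suz12Δ, and *Nodal* was 14.6-fold and *Dppa5a* 8.40-fold higher in Suz12GT.

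In Eednull day 5 cells the difference from E14 was smaller. *Utf1* had a log2 ratio of 2.87, *Tdgf1* 1.27 and *Dppa4* 1.06, and these 3 genes were higher by 2-fold or more, beside 21.6% of all genes. *Lefty1* (0.72), *Dppa5a* (0.57), *Dppa2* (0.37) and *Lefty2* (-0.18) did not reach 2-fold. *Nodal* and *Dppa3* were under 0.1 FPKM in both libraries, so the 3 genes are of 7 compared. The median of these 7 was 0.72, against 0.08 over all genes. Among the 7, *Utf1* and *Dppa2* were under 0.1 FPKM in E14 and entered only through Eednull. These counts depend on the pseudocount: with 1 FPKM in place of 0.1 FPKM, 1 gene was 2-fold or more higher in Suz12GT, 5 in Suz12Δ and 0 in Eednull. The 3 mutants share the E14 day 5 library, so their ratios are not independent of each other.

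Suz12Δ was then set against the other mutants directly. Against Suz12GT, 6 of 9 genes were 2-fold or more higher, beside 19.3% of all genes, led by *Utf1* with a log2 ratio of 2.32. *Lefty1* (0.60), *Lefty2* (0.24) and *Dppa5a* (0.03) did not reach 2-fold. Against Eednull all 9 were 2-fold or more higher, beside 9.93% of all genes. *Nodal* and *Dppa3* were under 0.1 FPKM in Eednull and entered only through Suz12Δ, as did *Dppa3* against Suz12GT. The 8 genes above 0 in both had log2 ratios from 1.28 for *Utf1* to 2.65 for *Dppa2*. *Nodal* was at 0.609 against 0.0913 FPKM and *Tdgf1* at 2.94 against 0.563 FPKM. In ESCs, 8 of the 9 genes had been lower in Suz12Δ than in Eednull, and *Dppa3* had been higher.

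All these day 5 levels were low. The 9 genes ranked between the 26.4 and 51.5 percentiles of genes above 0 in Suz12Δ and between the 2.02 and 28.4 percentiles in E14. The depth in reads behind values under 1 FPKM is unknown, and a listed 0 need not be absence, since between 0 and 5 genes of each library had a 0 although every other library held at least 10 FPKM of them. The fibroblast markers were again higher in the mutants, with a summed FPKM of 7.14 in E14, 23.9 in Suz12GT, 145 in Suz12Δ and 80.2 in Eednull day 5 cells, and 1 of the 12, *Lum*, was listed at 0 in E14. Of the 12 markers, 10 were 2-fold or more higher than in E14 in Suz12GT and 12 in each of the others. Of all genes, 16.8% were higher by that much in Suz12GT, 26.6% in Suz12Δ and 21.6% in Eednull. The 6 endoderm markers, among them *Gata4*, *Gata6* and *Sox17*, summed to 3.69 FPKM in E14, 29.1 in Suz12GT, 41.4 in Suz12Δ and 36.0 in Eednull. The part of such cells in the day 5 levels was not tested.

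The ratio to *Pou5f1* compares what was left of each gene at day 5 with what was left of another ESC gene. *Pou5f1* itself was at 0.302 FPKM in E14, 1.80 in Suz12GT, 2.12 in Suz12Δ and 0.340 in Eednull day 5 cells. It does not stand for all ESC genes in Eednull. Of 8 other ESC genes compared there with E14 day 5 cells, *Pou5f1* among them, 5 were 2-fold or more higher and 1 lower. Of all genes, 21.6% were higher and 11.3% lower. *Zfp42* was at 2.21 FPKM in Eednull against 0.143 in E14. The ratios in Eednull therefore depend on the choice of *Pou5f1*. *Utf1* was 0.214 times the *Pou5f1* level in E14, 0.269 times in Suz12GT, 1.32 times in Suz12Δ and 3.24 times in Eednull, while in ESCs it was 0.378 to 0.629 times. *Nodal* was 0.0448, 0.110, 0.287 and 0.269 times the *Pou5f1* level in the same day 5 libraries, and 0.0644 to 0.127 times in ESCs. *Dppa4* was 0.422, 0.556, 1.05 and 1.10 times the *Pou5f1* level at day 5 and 0.230 to 0.332 times in ESCs. *Dppa2* was 0.219, 0.308, 0.587 and 0.336 times at day 5 and 0.140 to 0.262 times in ESCs. In both Suz12Δ and Eednull, then, *Utf1*, *Nodal*, *Dppa4* and *Dppa2* stood higher relative to *Pou5f1* at day 5 than in any ESC library, and the other 5 genes did not. For *Dppa4* this held in every day 5 library, wild-type E14 included, and for *Dppa2* also in Suz12GT, so it was not particular to these mutants. *Lefty1* was 0.403 to 0.926 times the *Pou5f1* level at day 5 and 0.812 to 1.48 times in ESCs. As both values of such a ratio are low at day 5, its precision is limited.

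The 25 other genes of the Nodal and activin pathway listed did not move as a block with the 4 described. In Suz12Δ ESCs 7 of 23 compared were 2-fold or more higher and 5 lower than in E14. Their median was -0.28 (0.09 after scaling to the 75th percentile), as over all genes, and 18% of all genes were higher and 22.8% lower by that much. *Inhba*, which encodes the activin A subunit, was at 43.0 FPKM in Suz12Δ and 32.0 in Eednull ESCs, against 5.48 in E14 and 4.62 in CJ7. *Fst*, whose product follistatin traps activin, was at 18.8 and 17.1 FPKM against 3.86 and 6.06. *Pmepa1*, an inhibitor of SMAD signalling, was at 48.5 and 31.3 FPKM against 10.4 and 9.63. These genes were thus high in both mutant ESC libraries, where *Nodal* was at 3.74 and 10.99 FPKM. Fibroblasts also express activin and follistatin genes, and the part of feeder RNA in their levels was not tested.

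*Gdf3*, a ligand gene of the same TGF-β family, was at 10.1 FPKM in Suz12Δ ESCs, 18.1 in Eednull, 26.2 in E14 and 19.4 in CJ7. *Foxh1*, which encodes the SMAD partner named above, was at 7.87, 11.1, 19.8 and 8.35 FPKM in the same order. *Smad7*, an inhibitor switched on by the pathway, was at 8.10, 19.3, 21.5 and 15.9 FPKM. *Gdf1*, a partner ligand of Nodal, was at 0.507, 3.81, 3.39 and 3.20 FPKM. All 4 genes, like *Nodal* and the Lefty genes, were thus lowest in Suz12Δ ESCs. Of the core transducers, *Smad4* was also lowest in Suz12Δ ESCs, but by little and not after this scaling, at 26.7 FPKM against 29.8 to 32.4 in the others. *Smad2* did not follow, at 21.9 FPKM in Suz12Δ against 17.7 to 25.5 in the others. *Smad3* was highest in Suz12Δ ESCs, at 10.6 FPKM against 4.04 to 6.34 in the others.

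Between ESC and day 5, 11 of 22 pathway genes compared were 2-fold or more lower in E14 and 2 were higher, beside 25.8% lower and 18.3% higher of all genes. In Eednull 12 of 25 were lower and 3 higher, beside 24.8% and 18.4%. In Suz12Δ 6 of 24 were lower and 6 higher, beside 12.6% and 26.9%. For the listed genes the median was -1.04 in E14, -0.79 in Eednull and 0.30 in Suz12Δ (-0.07 after scaling to the 75th percentile). *Gdf1* was at 2.76 FPKM in Suz12Δ day 5 cells, a log2 ratio of 2.24 to Suz12Δ ESCs, and at 1.48 FPKM in E14 day 5 cells. *Gdf3* and *Foxh1* behaved like the genes described, with *Gdf3* at 0.0209 FPKM and *Foxh1* at 0.259 FPKM in E14 day 5 cells. The receptor genes *Acvr2a* and *Acvr2b* and the transducer *Smad3* went the other way in E14, from 5.02 to 16.2, from 13.3 to 23.4 and from 5.14 to 18.2 FPKM.

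At day 5, 10 of 24 pathway genes were 2-fold or more higher in Suz12Δ than in E14, 9 of 23 in Eednull and 4 of 20 in Suz12GT, with medians of 0.77, 0.34 and 0.31. The shares of all genes were 26.6%, 21.6% and 16.8%. Mesendoderm genes that Nodal signals can switch on made up 3 of the genes in Suz12Δ. *Gsc* was at 0.0125 FPKM in E14, 0.165 in Suz12GT, 1.18 in Suz12Δ and 1.14 in Eednull. *Eomes* was at 0.0172, 0.0609, 0.454 and 0.199 FPKM in the same order, and *Mixl1* at 0.0150, 0.0144, 0.308 and 0.170 FPKM. All 3 target genes were under the minimum of 0.1 FPKM in E14. They were compared only where the mutant level passed that minimum, which fixed the direction in advance. They were 2-fold or more higher in Suz12Δ and in Eednull than in E14, with medians of 2.24 and 1.35. The target genes were thus higher in Eednull than in Suz12GT (3 of 3), whereas *Nodal* (0.0913 against 0.198 FPKM), *Tdgf1* (0.563 against 1.28 FPKM) and *Lefty1* (0.314 against 0.723 FPKM) stood lower in Eednull than in Suz12GT.

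**Figure D5:**
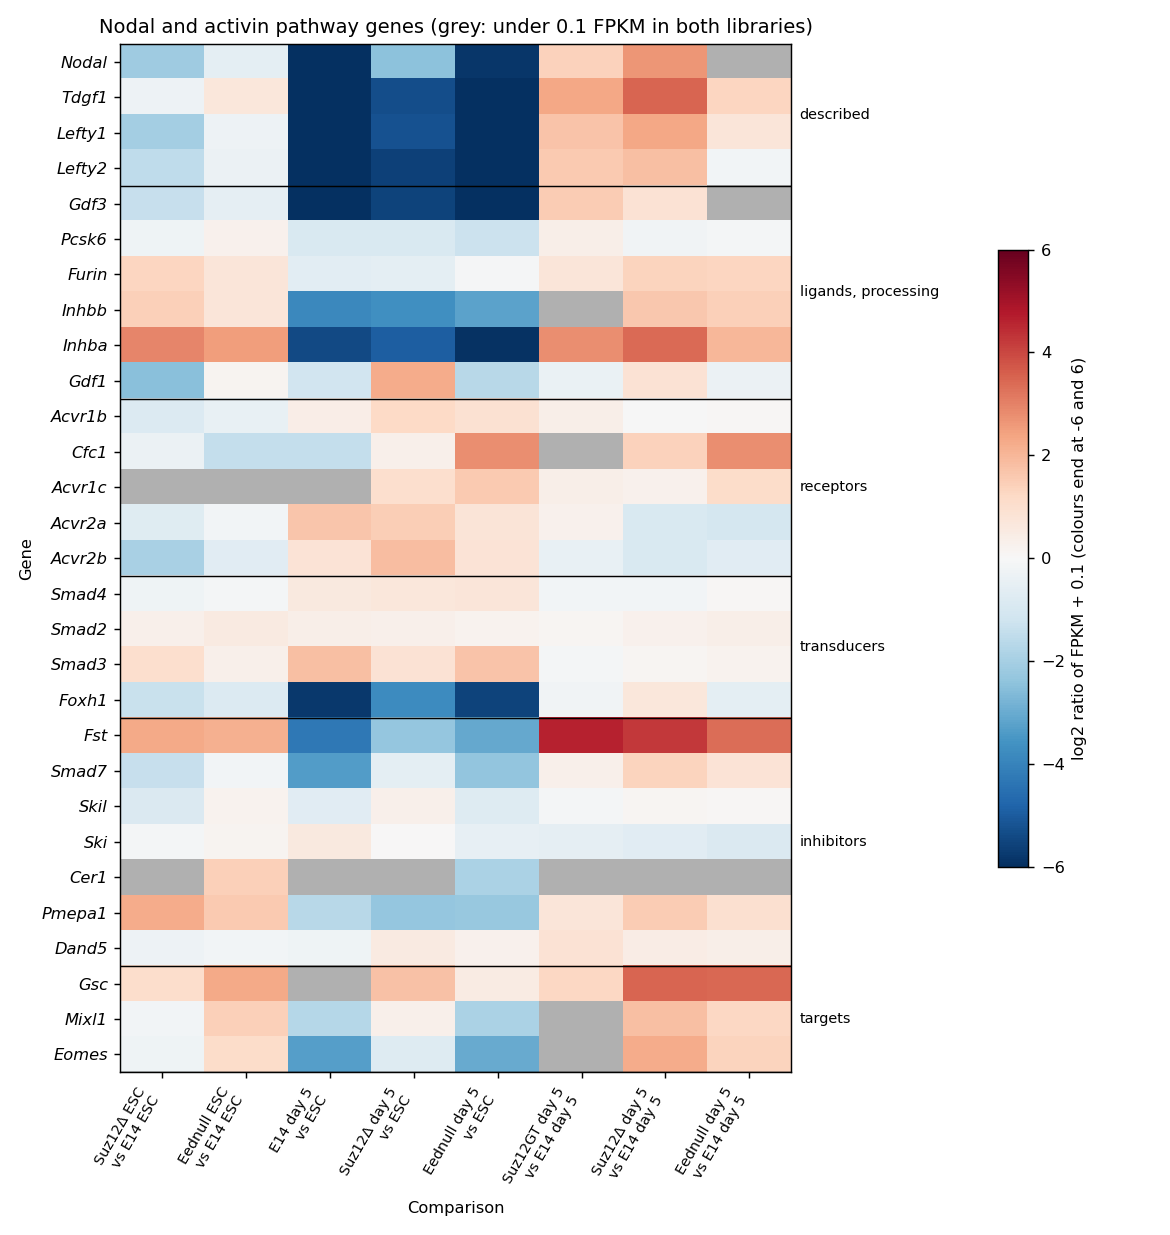
Colours show the log2 ratio of FPKM + 0.1 for *Nodal*, *Tdgf1*, *Lefty1*, *Lefty2* and 25 other pathway genes in 8 comparisons, with grey where both libraries are under 0.1 FPKM. The 4 genes at the top are lower at day 5 in every line. The targets at the foot, all under 0.1 FPKM in E14 day 5 cells, are higher in Suz12Δ and Eednull day 5 cells.

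Genes with the most similar profile over the 8 libraries were found by the root mean square difference of log2(FPKM + 0.1), after each gene was centred on its own mean. The search covered the 17735 genes that reach 1 FPKM in any library. *Lefty1* and *Lefty2* were each other's nearest gene, with a difference of 0.33. *Dppa5b* was nearest to *Dppa5a* (0.18), *Gm9788* to *Dppa2* (0.20) and *Gm14058* to *Dppa4* (0.23). All 3 share long stretches with the gene they are near, so their values are not independent of it. *Dppa4* was second for *Dppa2* (0.41), and *Nodal* followed *Gm14058* and *Gm5501* for *Dppa4* (0.39). *Pou5f1* was second for both *Dppa5a* (0.36) and *Tdgf1* (0.52).

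*Utf1*, which shares no stretch with another place, was nearest to the ESC genes *L1td1* (0.43), *Zfp42* (0.45) and *Zscan10* (0.56). *Nodal* was nearest to *Gm14058* (0.30), *Gm5501* (0.38) and *Dppa4* (0.39). *Dppa3* was nearest to *2410141K09Rik* (0.48), *Fos* (0.54) and *4930461G14Rik* (0.54). The pseudocount compresses the ratios of low genes, so genes of like level can come out closer together: from ESC to day 5 in E14, *Nodal* and *Lefty1* were 1219-fold and 1271-fold lower, but their log2 ratios were -7.19 and -9.58. With a pseudocount of 1 FPKM, 13 of the 27 nearest genes were shared. As the libraries fall into an ESC and a day 5 group, these differences mix the change to day 5 with differences between lines.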

How the data were processed

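RNA-seq values of 8 mouse libraries, 1 per condition, were used. The deposited table gives FPKM per gene. Per the methods and the submitters' processing notes, the authors aligned reads to NCBI build 37 by TopHat 1.3.2 (Bowtie 0.12.7) and estimated FPKM in Cufflinks 1.2.1 and Cuffdiff against gene models from Ensembl, correcting for bias and for reads with more than 1 place. Libraries were run on either of 2 sequencer models. All 8 columns were assigned from their names, and 0 columns were left without a sample. The table holds no counts, and low FPKM values showed no steps of single reads (at most 1.31% of low genes shared the commonest bin, 1% wide, of FPKM times length), so depth is unknown and no counting interval is given.

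Log2 ratios used a pseudocount of 0.1 FPKM over genes that reach 0.1 FPKM in either library compared, and a ratio of 2-fold or more was counted as a difference. No test across samples was possible. Values of exactly 0 are called listed at 0, and no fold is printed against them, but counts and list medians include such genes through the pseudocount (*Dppa3* among the members). Members, lists and rules were chosen with earlier results of these data known. Named genes were the 9 members, genes of the lists, and the 3 genes nearest in profile to each member. *Dppa5b*, *Gm9788* and other copies come from those profiles or from the match of 31-base stretches to build 37. Of the listed genes, *Tcstv1* and *Tfap2c* were not found under these symbols and *Pou3f1* was not used, as more than 1 row has that symbol. One gene of the pathway list is not reported here, and counts leave it out. Promoter windows were in the RefSeq table for 3 of 9 members. The calculations were tested on simulated data. Alternatives tried were a pseudocount of 1 or 0.01, no minimum or one of 1 FPKM, scaling to a common 75th percentile, and CJ7 as wild type. Python 3.11.15, NumPy 2.4.6, pandas 2.3.3 and matplotlib 3.10.9 were used.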

Additional observations from a re-analysis of the deposited data

Results flagged for a closer look

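Of the 9 genes, 8 stood below E14 in Suz12Δ ESCs and above E14 in Suz12Δ day 5 cells, so that the log2 ratio to E14 had opposite signs at the stages, as it had for 36.6% of the 20060 genes compared at both. The ratio at day 5 minus that in ESCs was 5.69 for *Utf1*, 5.05 for *Dppa4*, 4.75 for *Nodal*, 4.43 for *Dppa5a*, 4.34 for *Lefty1*, 3.76 for *Tdgf1*, 3.36 for *Lefty2* and 3.28 for *Dppa2*. For 6 of them, all but *Tdgf1* and *Dppa2*, both ratios were 2-fold or more, as for 4.22% of all genes. In Eednull the signs were opposite in the same way for *Nodal* (1.33, with both day 5 levels under 0.1 FPKM), *Dppa4* (1.24), *Dppa5a* (1.198) and *Lefty1* (1.004). Their Eednull to E14 ratios in ESCs were all under 2-fold, from -0.18 (*Dppa4*) to -0.62 (*Dppa5a*), and cross batches. The share of all genes with opposite signs in Eednull was not worked out. With 1 library per condition the difference between the stages was not tested. Both mutants share the E14 libraries, and the fibroblast markers were higher in Suz12Δ than in E14 at both stages.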

How the results depend on the processing

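No paired analysis was possible because each condition had 1 library. No difference of 2-fold or more changed sign under the alternatives, and of 288 single-gene values 278 kept their sign. The pseudocount mattered most, since day 5 levels are low. With a pseudocount of 1 the median log2 ratio of the 9 genes from ESC to day 5 was -5.94 in E14, -3.29 in Suz12Δ, -5.18 in Eednull and -5.46 in Suz12GT against E14 ESCs. Against E14 day 5 it was 0.56 in Suz12GT and 1.08 in Suz12Δ, with 1 and 5 genes 2-fold or more higher and 0 in Eednull. Of the 27 nearest genes 13 were shared. With 0.01 the changes were -9.62 in E14 and -8.51 in Eednull, and the day 5 medians 2.85 in Suz12GT and 4.03 in Suz12Δ. With a minimum of 1 FPKM only the genes at that level remained, giving 2.58 over 2 genes higher in Suz12GT and 2.87 with 1 higher in Eednull. After scaling to the 75th percentile 1 gene was 2-fold or more higher in CJ7 ESCs and 1 in Suz12Δ ESCs, and with CJ7 as wild type 1 was higher in Suz12Δ ESCs. The same scaling to the 75th percentile put *Dppa2* and *Tdgf1* in Suz12Δ ESCs above E14.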

Other observations

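Genes of the early embryo that DPPA2 and DPPA4 are known to switch on were also looked at, from a list of 8 of which 7 were in the table and 1, *Tcstv3*, was listed at 0 throughout. *Zscan4c*, a gene of the 2-cell embryo state that flickers on in ESC cultures, was at 34.7 FPKM in CJ7 ESCs, against 7.16 in E14, 5.54 in Suz12Δ and 4.6 in Eednull ESCs. *Zscan4d* and *Zscan4f* followed the same order, at 26.8 and 40.1 FPKM in CJ7 against 5.58 and 9.53 in E14, and these near-identical copies can share reads. At day 5 *Zscan4c* was at 0.166 FPKM in E14, 0.609 in Suz12GT, 4.15 in Suz12Δ and 0.117 in Eednull. The Suz12Δ level at day 5 was thus close to that of Suz12Δ ESCs, with a median log2 ratio over 6 genes compared of -0.14, against -4.49 in E14 and -4.28 in Eednull over 5 genes each. All 6 were 2-fold or more higher in Suz12Δ than in E14 day 5 cells, beside 26.6% of all genes. Of these, *Tdpoz1* (0.106 FPKM in Suz12Δ), *Tdpoz4* (0.788 FPKM) and *Zfp352* (0.755 FPKM) were listed at 0 in E14 and pass only through the pseudocount.

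Of 5 germ cell genes 4 could be compared at day 5. Of these, 3 were 2-fold or more higher in Suz12Δ than in E14, 2 in Eednull and 1 in Suz12GT. The shares of all genes were 26.6%, 21.6% and 16.8%. *Prdm1*, which starts the germ cell programme, was listed at 0 in E14 day 5 cells and was at 0.112 FPKM in Suz12GT, 3.11 in Suz12Δ and 3.02 in Eednull, while *Prdm14* was at 0.0411 FPKM in Suz12GT, 0.0334 in Suz12Δ and listed at 0 in the others. *Fgf5* and *Otx2*, genes of the primed epiblast, were at 3.37 and 0.488 FPKM in Suz12Δ and 3.11 and 0.402 FPKM in Eednull day 5 cells, against 0.405 FPKM and a listed 0 in E14. With *Dnmt3b*, all 3 primed genes were 2-fold or more higher in Suz12Δ than in E14 day 5 cells and 2 of 3 in Eednull, beside 26.6% and 21.6% of all genes.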
